A study of Mus musculus with 9 samples.

Results

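Genes widely used to follow astrocytes through brain development (Aqp4, Aldh1l1, S100b, Agt, Gpr37l1, Fabp7, Fgfr3, Sparcl1, Clu and Mlc1) were followed across the embryonic and adult mouse central nervous system (CNS). They were chosen by name, as the rows of a raw count table whose Ensembl identifiers carry these symbols, and make up 10 of 45706 gene identifiers. All 10 passed the filter on low counts that left 17971 genes for testing. RNA came from C57BL6/J mice, for which the labels name no treatment, transgene or mutation, at 2 embryonic stages named by days after conception, E9.5 and E14.5, and in adults at P60 (days after birth), 3 libraries per stage. The E9.5 tissue was the head, severed at the rear of the hindbrain ventricle and trimmed of tissue that was not neuroectoderm. The E14.5 tissue was brain stripped of its meninges, and the P60 tissue was whole CNS from mice perfused with saline. Stage and dissection therefore cannot be told apart. The labels do not say whether the 3 libraries of a stage came from separate animals or pools, so p-values measure the spread between these libraries, which may be technical.

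Astrocytes are the glial cells that clear glutamate, buffer potassium and water, and wrap brain vessels with their endfeet. In mice they arise from radial glia, the neural stem cells of the embryo, mainly after neurogenesis, and mature over the first weeks after birth. Several genes called astrocyte markers are already used by radial glia, while others come on only in differentiated astrocytes. The list holds both kinds: Fabp7 and Fgfr3 are known from progenitors, whereas Aqp4, S100b, Agt and Gpr37l1 are known mainly from mature cells.

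The libraries held 30481975 to 35619093 counts, and log2 (CPM + 1) profiles correlated at 0.981 to 0.998 across genes within a stage against 0.625 to 0.869 between stages. CPM is a gene's reads scaled to the TMM-adjusted library total. Marker levels of other cell types changed between stages as well. Summed neuron markers (10 genes) ranged from 270.7 to 320.2 CPM at E9.5, 5809 to 7057 CPM at E14.5 and 7226 to 8359 CPM at P60. Summed oligodendrocyte and myelin markers (12 genes) ranged from 67.3 to 70.7, 89.2 to 127.3 and 14297 to 16599 CPM at the same stages. The neuron list was split from E14.5 to P60, with 5 genes called higher and 5 lower by the test given below (median log2 fold change 0.26). Surface ectoderm and mesenchyme markers (10 genes) ranged from 362.3 to 473.2 CPM at E9.5, 39.6 to 47.8 CPM at E14.5 and 16.9 to 23.5 CPM at P60. No marker of these 3 lists lacked reads at any stage. In each stage 1 library was most often an extreme: replicate 1 at E9.5 was the highest or lowest of its 3 for 81.5% of genes, replicate 1 at E14.5 for 87.8% and replicate 2 at P60 for 84.5%. That P60 library was an extreme for 10 of 10 members, highest for 7 and lowest for S100b, Agt and Fabp7. Replicate 3 at E14.5 was also an extreme for 10 of 10 (3 highest, 7 lowest). Over all genes it was an extreme for 56.7% (26.9% highest, 29.8% lowest).

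Between E9.5 and E14.5, 8 of the 10 genes rose, 0 fell and 2, Aqp4 and Fgfr3, were not called (edgeR quasi-likelihood test, Benjamini-Hochberg adjusted p under 0.05 over all genes). The share called over all genes was 64.6%, with 34.0% higher and 30.7% lower. Between E14.5 and P60, 8 rose, Fabp7 fell and Fgfr3 was not called, beside 76.1% of all genes called, 36.7% higher and 39.4% lower. Over the whole interval from E9.5 to P60, 9 rose and 0 fell, beside 82.6% of all genes called, 42.0% higher and 40.6% lower. Counted by libraries alone, 8 genes had every E14.5 library above every E9.5 library (37.1% of all genes) and 0 had every one below (35.1%). For P60 against E14.5, 8 genes lay wholly above (36.9% of all genes) and Fabp7 wholly below (39.4%). The median log2 fold change of the 10 genes was 2.59 in the first step and 4.16 in the second, against 0.03 and -0.06 over all genes tested. These are whole-tissue libraries, so fewer cells of a type and less RNA per cell cannot be told apart at any stage. The rise of these genes ran alongside that of neuron markers in the first step and of myelin markers in the second, and the part of cell makeup in it was not tested.

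**Figure D1:**
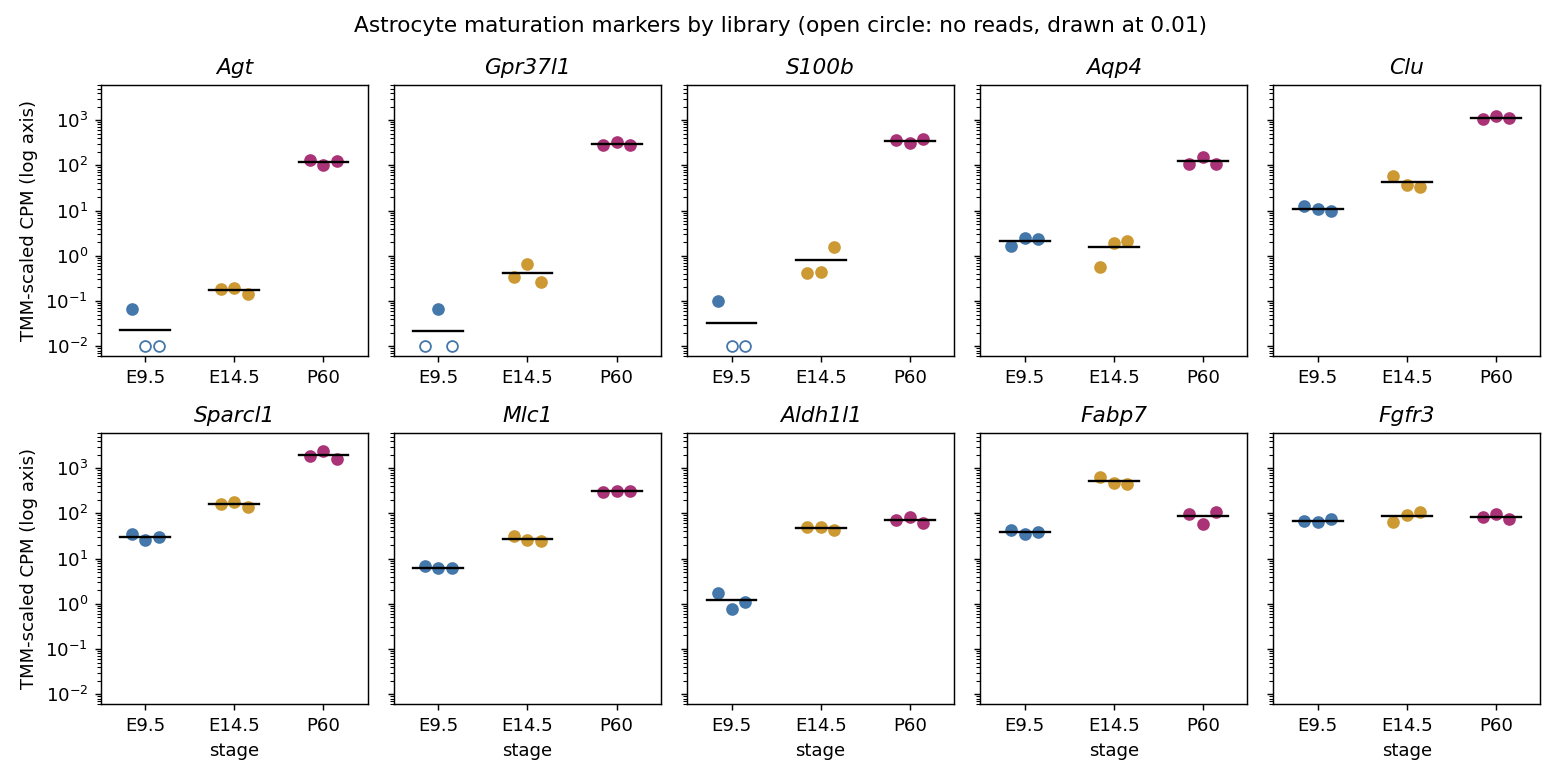
Level of each of the 10 genes in each library, in TMM-scaled CPM on a log axis, with stages on the horizontal axis, a point per library and a bar at the stage mean (3 libraries per stage), and open circles at 0.01 for libraries without reads. S100b, Agt and Gpr37l1 lie below 2 CPM and Aqp4 below 3 CPM at both embryonic stages and all 4 above 100 CPM at P60, Fabp7 is highest at E14.5, and Fgfr3 stays between 63.1 and 105.7 CPM.

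The 2 steps were then compared within each gene, as the log2 change from E14.5 to P60 minus the log2 change from E9.5 to E14.5. For 6 genes (Aqp4, Agt, Gpr37l1, Sparcl1, Clu and Mlc1) the second step was the higher, for 2 (Aldh1l1 and Fabp7) it was the lower, and for S100b and Fgfr3 the difference was not called. Over all genes 62.3% were called in this contrast, 25.1% with the higher value in the second step and 37.2% in the first. The genes are taken below by these patterns.

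The first pattern was a gene almost silent in the embryo. S100b (Ensembl ENSMUSG00000033208, chromosome 10, 76253853 to 76261159, plus strand, GRCm38) encodes a calcium-binding protein that astrocytes also secrete. Its level was 0.1, 0 and 0 CPM in the E9.5 libraries (3 reads in all), 0.422, 0.447 and 1.58 CPM at E14.5, and 369.4, 314.7 and 373.4 CPM at P60. Every P60 library was far above every embryonic one, and replicate 3 was the highest of E14.5. From E14.5 to P60 it rose by 8.74 ± 0.50 on the log2 scale, 429-fold (adjusted p = 8.6e-08), and by 9.64 without E14.5 replicate 3. From E9.5 to E14.5 the summed reads went from 3 to 85, a ratio of 25.0 (95% interval 8.26 to 123.5, counting error only), called at an adjusted p of 0.0013. The fitted change of that step, 4.49, became 7.77 without E9.5 replicate 1 and 3.59 without E14.5 replicate 3. The fit that gave 7.77 had no E9.5 reads of S100b left, so that size is not resolved. The difference between its steps, 4.26 ± 2.12, missed the threshold (adjusted p = 0.1), passed it with DESeq2 (0.0062) or without E14.5 replicate 3 (6.05, adjusted p = 0.0072), and was 0.95 (adjusted p = 0.81) without E9.5 replicate 1, which held all 3 reads.

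Agt (ENSMUSG00000031980, chromosome 8, 124556534 to 124569706, minus strand) encodes angiotensinogen, the precursor of the angiotensin peptides, which the brain makes mostly in astrocytes. It had 0.0669, 0 and 0 CPM at E9.5 (2 reads), 0.181, 0.196 and 0.144 CPM at E14.5 (6, 7 and 5 reads), and 133.8, 102.5 and 125.7 CPM at P60. The embryonic libraries did not overlap between stages, yet both stages lay close to 0. The rise from E14.5 to P60 was 9.41 ± 0.31 on the log2 scale, 681-fold (adjusted p = 4.6e-09). The earlier step rested on 18 reads against 2, a ratio of 7.93 (95% interval 1.9 to 70.5), with an adjusted p of 0.0066. Its fitted change was 2.79, and 5.56 without E9.5 replicate 1. The fit that gave 5.56 had no E9.5 reads of Agt left, so that size is not resolved. The second step exceeded the first by 6.63 ± 1.67 (adjusted p = 0.0055), a call lost without E9.5 replicate 1 (3.84, adjusted p = 0.89), the library with both E9.5 reads.

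Gpr37l1 (ENSMUSG00000026424, chromosome 1, 135160234 to 135167681, minus strand) encodes a G protein-coupled receptor of astrocytes for which prosaposin has been proposed as a ligand. Its level was 0, 0.0663 and 0 CPM at E9.5 (2 reads), 0.331, 0.643 and 0.259 CPM at E14.5 (11, 23 and 9 reads), and 277.3, 327.0 and 275.1 CPM at P60. It rose 703-fold from E14.5 to P60 (9.46 ± 0.35, adjusted p = 6.6e-09). In the step before, 43 reads stood against 2, a ratio of 18.9 (95% interval 4.94 to 161.5; adjusted p = 0.00068). Its fitted change there was 4.02, and 6.78 without E9.5 replicate 2. The fit that gave 6.78 had no E9.5 reads of Gpr37l1 left, so that size is not resolved. The second step exceeded the first by 5.44 ± 1.87 (adjusted p = 0.026), which was 2.67 (adjusted p = 0.83) without E9.5 replicate 2, the library with both reads, and 6.39 (adjusted p = 0.01) without E14.5 replicate 2. When only the E9.5 and E14.5 libraries were fitted, Agt and Gpr37l1 were removed by the filter on low counts.

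Promoter sequences of the 3 genes with the largest second-step folds are set beside that of Fabp7, the gene that peaked at E14.5, to show what the regions just upstream of such differently timed genes look like. They are RefSeq sequences of GRCm38.p6 read 5′ to 3′ on the gene's strand, at chr10:76253586-76253835 (plus) for S100b, chr8:124569707-124569956 (minus) for Agt, chr1:135167682-135167931 (minus) for Gpr37l1 and chr10:57784673-57784880 (plus) for Fabp7. Capitals mark matches on either strand to the 5 motifs searched: TTGGC, the core bound by nuclear factor I (NFI), ACAAT, a SOX core, TTCNNNGAA, the STAT palindrome, TGGGAA, the RBPJ core of Notch signalling, and TATAAA, the TATA box. None of the marked matches overlap, and the Fabp7 stretch ends where the GENCODE transcript begins.
S100b: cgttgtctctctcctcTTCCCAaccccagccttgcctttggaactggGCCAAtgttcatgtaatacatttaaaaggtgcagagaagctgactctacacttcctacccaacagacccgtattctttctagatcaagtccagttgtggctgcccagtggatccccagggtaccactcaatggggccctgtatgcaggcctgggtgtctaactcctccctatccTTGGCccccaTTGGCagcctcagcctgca
Agt: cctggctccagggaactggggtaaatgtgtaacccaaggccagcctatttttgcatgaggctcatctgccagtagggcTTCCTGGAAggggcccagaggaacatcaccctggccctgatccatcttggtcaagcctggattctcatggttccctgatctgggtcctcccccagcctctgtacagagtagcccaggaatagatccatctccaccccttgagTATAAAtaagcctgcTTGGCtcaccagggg
Gpr37l1: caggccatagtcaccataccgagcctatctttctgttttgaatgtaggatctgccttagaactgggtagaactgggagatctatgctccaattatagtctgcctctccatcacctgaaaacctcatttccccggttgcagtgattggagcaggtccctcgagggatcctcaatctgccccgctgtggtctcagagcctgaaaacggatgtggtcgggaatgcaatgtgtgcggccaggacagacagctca
Fabp7: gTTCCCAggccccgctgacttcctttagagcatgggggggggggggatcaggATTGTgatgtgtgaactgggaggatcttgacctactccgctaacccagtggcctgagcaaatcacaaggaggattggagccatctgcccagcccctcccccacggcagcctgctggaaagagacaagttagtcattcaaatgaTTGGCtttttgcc
In the 250 bases before the RefSeq start, S100b held 3 NFI cores and 1 RBPJ core. Agt held a TATA box whose first base lay 30 bases before the start, an NFI core 15 bases before it and a STAT palindrome 172 bases before it. The Gpr37l1 window held none of the 5 motifs. Fabp7 held 1 match each to the NFI, SOX and RBPJ cores. Of 32851 promoter windows of this length, 41.5% held the NFI core, 27.7% the SOX core, 21.6% the RBPJ core, 12.4% the TATA box and 7.02% the STAT palindrome. The Agt window had 0 CpG dinucleotides, S100b 2, Fabp7 4 and Gpr37l1 7, against a median of 6 over all windows. Of the 10 genes 7 had a window in the table. Mlc1 held an NFI core, 55 bases before its start, an RBPJ core 172 bases before it, and 0 CpG. Aldh1l1 held an RBPJ core 150 bases before its start and 7 CpG. Fgfr3 had 2 windows with 19 and 24 CpG and none of the motifs. For Mlc1, Aldh1l1 and Fgfr3 the RefSeq starts lie inside the gene intervals given here. The Aldh1l1 window ends at a start at 90550793, far inside the gene, whose GENCODE start is 90486427. The RefSeq start of Mlc1 is 88978553 (GENCODE 88979007), and those of Fgfr3 are 33721724 and 33722306 (GENCODE 33721674). A match describes letters in the window and is not a binding site.

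Aqp4 (ENSMUSG00000024411, chromosome 18, 15389496 to 15410982, minus strand) encodes the water channel of astrocyte endfeet. Its level was 1.61, 2.49 and 2.39 CPM at E9.5, 0.573, 1.93 and 2.1 CPM at E14.5, and 104.3, 152.5 and 109.6 CPM at P60. The embryonic stages overlapped, with replicate 1 the lowest library of each, and all P60 libraries lay above them. From E9.5 to E14.5 the change was -0.49 ± 0.38 (adjusted p = 0.29). From E14.5 to P60 Aqp4 rose 79.1-fold, by 6.31 ± 0.41 on the log2 scale (adjusted p = 2.1e-07). The second step exceeded the first by 6.79 ± 0.71 (adjusted p = 1.5e-05), and by 6.01 without E14.5 replicate 1. Aqp4 differed from S100b, Agt and Gpr37l1 in having 48 to 75 reads in each E9.5 library. At E14.5, the mean was 1.26% of the P60 mean for Aqp4, 0.232% for S100b, 0.144% for Agt and 0.14% for Gpr37l1.

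Clu, Sparcl1 and Mlc1 rose in both steps, with the larger rise in the second. Agt and Gpr37l1, on few embryonic reads, were called in the same way. S100b and Aldh1l1 were also called higher in both steps. Over all genes 14.8% were higher in both steps. Clu (ENSMUSG00000022037, chromosome 14, 65968483 to 65981547, plus strand) encodes clusterin, a secreted chaperone and lipoprotein component. It had 12.3, 10.6 and 9.54 CPM at E9.5, 57.5, 36.7 and 34.0 CPM at E14.5, and 1041, 1208 and 1107 CPM at P60. The stages did not overlap, and replicate 1 of E14.5 stood above the rest of that stage. Clu rose 3.95-fold in the first step (1.98 ± 0.21, adjusted p = 1.3e-05) and 26.2-fold in the second (4.71 ± 0.24, adjusted p = 4e-08), a difference of 2.73 ± 0.38 (adjusted p = 0.00011).

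Sparcl1 (ENSMUSG00000029309, chromosome 5, 104079111 to 104113733, minus strand) encodes hevin, a matrix protein that astrocytes secrete and that promotes synapse formation. It had 35.3, 25.6 and 29.4 CPM at E9.5, 159.3, 176.6 and 137.0 CPM at E14.5, and 1844, 2345 and 1608 CPM at P60. No library of one stage reached the range of another, and replicate 2 was the highest at P60. The rises were 5.24-fold (2.39 ± 0.20, adjusted p = 1.7e-06) and 12.3-fold (3.62 ± 0.21, adjusted p = 9.3e-08), and they differed by 1.23 ± 0.33 (adjusted p = 0.0081).

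Mlc1 (ENSMUSG00000035805, chromosome 15, 88955884 to 88979007, minus strand) encodes a membrane protein of astrocyte junctions at endfeet, mutated in human megalencephalic leukoencephalopathy with cysts. Its level was 6.69, 6.2 and 6.09 CPM at E9.5, 32.0, 25.9 and 24.2 CPM at E14.5, and 294.0, 317.5 and 309.8 CPM at P60. Its stages did not overlap, and the coefficient of variation over libraries was 5.01% at E9.5, 3.9% at P60 and higher than both at E14.5. Mlc1 rose 4.32-fold (2.11 ± 0.15, adjusted p = 4.8e-07) and then 11.2-fold (3.49 ± 0.15, adjusted p = 1.5e-08), and the steps differed by 1.38 ± 0.25 (adjusted p = 0.0007). By E14.5 these 3 genes had reached 3.82% (Clu), 8.16% (Sparcl1) and 8.91% (Mlc1) of their P60 means.

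Aldh1l1 (ENSMUSG00000030088, chromosome 6, 90486427 to 90600203, plus strand) had the reverse timing. It encodes a cytosolic folate enzyme, 10-formyltetrahydrofolate dehydrogenase, and its promoter drives many astrocyte reporter mice. Its level was 1.71, 0.762 and 1.12 CPM at E9.5, 50.5, 50 and 42.5 CPM at E14.5, and 70.5, 82.7 and 62.2 CPM at P60. It rose 39.8-fold in the first step (5.31 ± 0.26, adjusted p = 4.7e-08), so that E14.5 already stood at 66.4% of P60. All P60 libraries lay above all E14.5 libraries. The second rise was 1.51-fold (0.59 ± 0.21, adjusted p = 0.023), and its call was lost with unscaled library totals (0.46, adjusted p = 0.062) and without E14.5 replicate 3 (0.51, 0.087), P60 replicate 1 (0.6, 0.054) or P60 replicate 2 (0.48, 0.065). The second step was lower than the first by 4.72 ± 0.37 on the log2 scale (adjusted p = 1.6e-06). An antisense gene, Gm15756, shares 499 exon bases with Aldh1l1 and had 5 reads over the 9 libraries, against 12096 for Aldh1l1.

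Fabp7 (ENSMUSG00000019874, chromosome 10, 57784881 to 57788450, plus strand) was highest at E14.5. It encodes brain lipid-binding protein, a fatty acid carrier of radial glia that astrocytes retain. It had 43.7, 34.9 and 39.4 CPM at E9.5, 638.8, 477.9 and 443.7 CPM at E14.5, and 95, 59.3 and 105.4 CPM at P60. The 3 stages did not overlap, and P60 lay between the embryonic stages. Fabp7 rose 13.2-fold in the first step (3.72 ± 0.25, adjusted p = 3.2e-07) and fell 6.01-fold in the second (-2.59 ± 0.23, adjusted p = 2.5e-06). P60 remained above E9.5 by 2.2-fold (1.14 ± 0.23, adjusted p = 0.00068). Over all genes 11.5% rose and then fell.

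Fgfr3 (ENSMUSG00000054252, chromosome 5, 33721674 to 33737068, plus strand) encodes a receptor for fibroblast growth factors carried by radial glia and astrocytes. Its level was 68.0, 64.3 and 75.9 CPM at E9.5, 63.1, 91.3 and 105.7 CPM at E14.5, and 84.5, 94.5 and 73.8 CPM at P60. The stages overlapped, and the E14.5 libraries spread over the whole range. The changes were 0.32 ± 0.19 (adjusted p = 0.16) in the first step, -0.04 ± 0.19 (adjusted p = 0.85) in the second and 0.28 ± 0.19 (adjusted p = 0.19) from E9.5 to P60. Without E14.5 replicate 1 the first rise was called (0.51, adjusted p = 0.012), as was the difference between steps (-0.74, adjusted p = 0.031). From E9.5 to P60 it was called with upper quartile scaling (0.43, adjusted p = 0.049) and when only those stages were fitted (0.35, adjusted p = 0.036). The sign of the second change turned under other scalings. A gene on the opposite strand, G630022F23Rik, shares 998 exon bases with Fgfr3 and had 302 reads over all libraries against 23652 for Fgfr3.

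**Figure D2:**
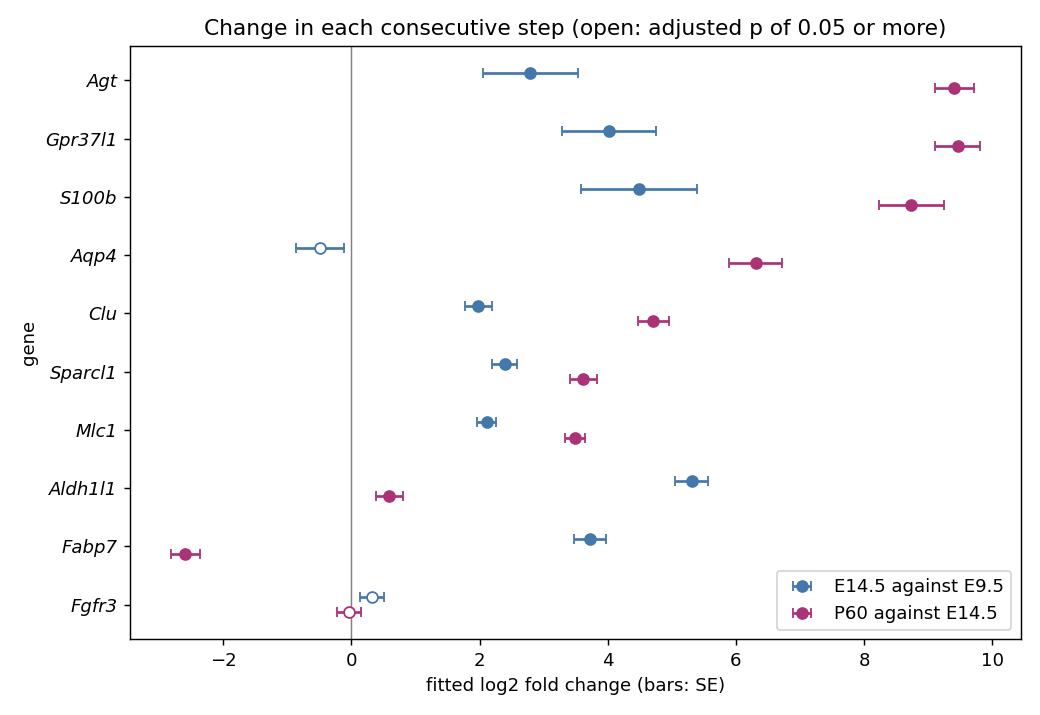
Fitted log2 fold change of each gene from E9.5 to E14.5 (blue) and from E14.5 to P60 (magenta), with error bars of 1 SE and open points where the adjusted p was 0.05 or more. Aldh1l1 and Fabp7 have the higher value in the first step (5.31 and 3.72), and Fgfr3 is near 0 in both. Gpr37l1, Agt, S100b and Aqp4 have it in the second (9.46, 9.41, 8.74 and 6.31), as do Clu, Sparcl1 and Mlc1 (4.71, 3.62 and 3.49). The difference between steps was not called for S100b and Fgfr3.

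Over the whole interval from E9.5 to P60 the risers spread over several orders of size. The ratio of summed reads was 10720 for S100b (95% interval 3668 to 51986), 5492 for Agt (1520 to 45350.4) and 13432 for Gpr37l1 (3718 to 110913), each against 2 or 3 reads at E9.5, so their order is not resolved. Clu rose 103.5-fold (adjusted p = 2.2e-09), Sparcl1 64.2-fold (2.1e-09), Aldh1l1 59.9-fold (6.2e-09), Aqp4 56.4-fold (1.4e-07) and Mlc1 48.5-fold (5.8e-10). Aldh1l1 and Aqp4 differed in timing, with most of the rise in the first step for Aldh1l1 (39.8-fold) and in the second for Aqp4 (79.1-fold, from an E14.5 mean below that of E9.5).

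Per unit of exon length (TPM, which scales each library to the same sum after dividing reads by length), the order of the 10 genes changed between stages. At E9.5 Fabp7 was first with 111.8 ± 9.23 TPM, followed by Sparcl1 (36.3 ± 4.44) and Fgfr3 (34.6 ± 4.14), whose libraries overlapped. At E14.5 Fabp7 reached 1640 ± 155.3 TPM, well above Sparcl1 with 214.0 ± 32.3, and Fgfr3, Clu, Aldh1l1 and Mlc1 (49.1, 48.7, 42.0 and 38.6 TPM) each overlapped with the next. At P60 Sparcl1 led with 1762 ± 509.9 TPM, then Clu with 864.5 ± 139.0 and S100b with 625.2 ± 15.3. Gpr37l1 (344.0) and Mlc1 (290.5) overlapped, as did Fabp7 (180.1) and Agt (167.7). Aqp4 (52.5), Aldh1l1 (42.4) and Fgfr3 (31.4 TPM) came last, and neighbours among these 3 overlapped. Overlap here means that ranges over libraries overlap. Within each P60 library Gpr37l1 was above Mlc1, and Aqp4 above Aldh1l1 above Fgfr3. Fabp7 thus went from the first place in the embryo to the sixth in the adult. TPM was used to compare genes within a stage. Changes between stages are given on the CPM scale, since the 2 can differ (Fgfr3 was at 49.1 TPM at E14.5 and 31.4 TPM at P60, and at 86.7 and 84.3 CPM). With the longest transcript in place of all exon bases, Fgfr3 traded places with Sparcl1 at E9.5, with Clu at E14.5 and with Aldh1l1 at P60, all of them pairs whose libraries overlapped. Summed over the 10 genes the libraries held 145.0 to 169.5 CPM at E9.5, 791.1 to 1003 CPM at E14.5 and 4150 to 5004 CPM at P60.

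**Figure D3:**
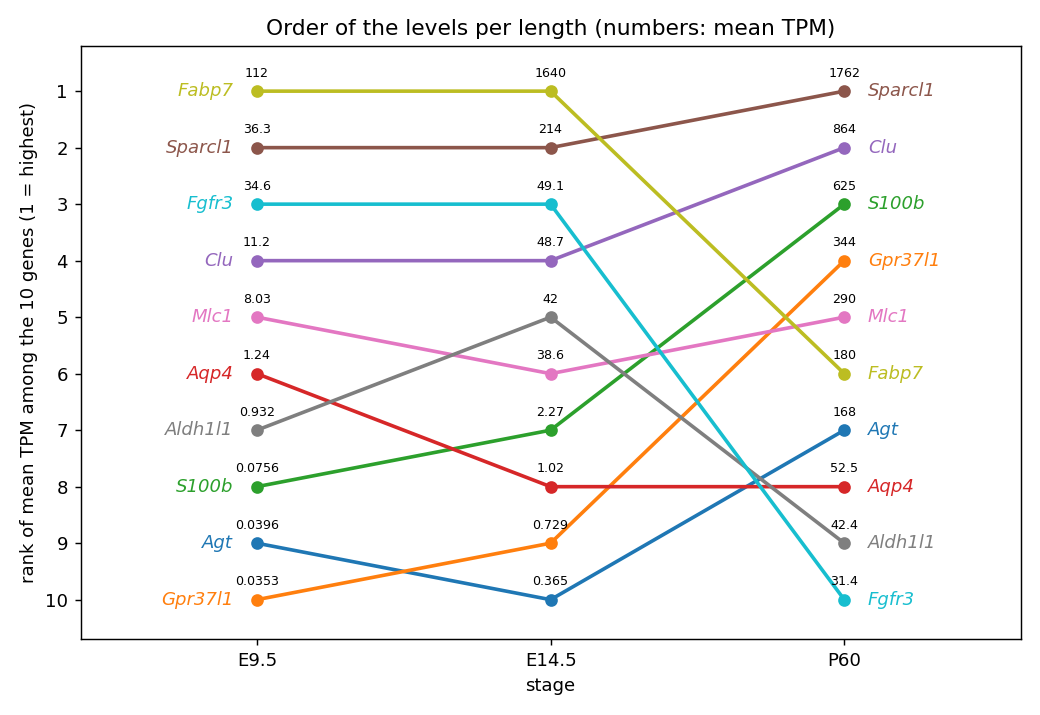
Rank of each of the 10 genes by mean TPM within a stage (1 is the highest), with stages on the horizontal axis, the mean TPM of 3 libraries printed above each point and lines joining the ranks of a gene. Fabp7 is first at E9.5 (111.8 TPM) and E14.5 (1640 TPM) and Sparcl1 at P60 (1762 TPM). Some neighbours have overlapping ranges over the libraries of a stage.

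Paralogues of the 10 genes were set beside them. Fgfr3 was not called in either step. Its paralogue Fgfr1 fell in both, going from 205.2 to 132.9 and 45.7 CPM (-0.63, adjusted p = 0.017, then -1.54, adjusted p = 4.3e-05), and Fgfr2 fell in the first step from 119.9 to 61.9 CPM (adjusted p = 0.00018). Fgfr4 rose from 0.415 to 1.06 CPM (adjusted p = 0.0034) and then fell to 0.156 CPM (adjusted p = 4.2e-05). As a share of the summed TPM of Fgfr1 to Fgfr4, Fgfr3 was 23.0 ± 1.64% at E9.5, 37.6 ± 5.33% at E14.5 and 53.9 ± 2.94% at P60, with no overlap between stages. A list of 21 FGF pathway genes left out Fgfr3 but held Fgfr1, Fgfr2 and Fgfr4. In the first step 3 rose and 14 fell (median -0.98), beside 34.0% higher and 30.7% lower over all genes. In the second step 8 rose and 7 fell (median 0.10), beside 36.7% and 39.4%. Fgf8, an early patterning ligand, fell from 15.6 to 0.57 CPM in the first step. In the second step Fgf15, an embryonic ligand, fell from 19.5 to 0.0909 CPM and Fgf1, a ligand of adult neurons and glia, rose from 0.59 to 98.9 CPM (7.37 ± 0.43, adjusted p = 1.1e-07).

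Among fatty acid carriers, the Fabp7 peak was not shared by Fabp5, at 225.9, 245.8 and 224.8 CPM across the stages and not called in either step, nor by Fabp3, which rose in both steps from 0.732 to 12.9 and 48.9 CPM. Fabp7 made up 32.9 ± 1.43% of the summed TPM of the 3 carriers at E9.5, 83.1 ± 0.417% at E14.5 and 35.9 ± 1.71% at P60. Aldh1l2, the mitochondrial counterpart of Aldh1l1, rose with it in the first step from 4.23 to 42.8 CPM (3.34 ± 0.26, adjusted p = 1e-06) and fell in the second to 3.43 CPM (-3.64 ± 0.26, adjusted p = 4.6e-07). Aldh1l1 was 31.3 ± 9.6% of the pair's TPM at E9.5, 65.1 ± 7.84% at E14.5 and 97.2 ± 0.493% at P60. Folate genes other than Aldh1l1 fell more often than they rose. Of 16 tested, Aldh1l2 among them, 2 rose and 11 fell in the first step (median -1.56), beside 34.0% higher and 30.7% lower over all genes. In the second step 3 rose and 10 fell (median -1.19), beside 36.7% and 39.4%. Mthfd1l, a mitochondrial formate-producing enzyme, fell from 103.1 to 10.6 CPM in the first step, and Tyms, thymidylate synthase, from 37.1 to 3.9 CPM in the second.

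Gpr37, the closest relative of Gpr37l1 and a gene of oligodendrocytes, rose in both steps from 1.81 to 5.06 and 114.1 CPM. Gpr37l1 was 17.9 ± 6.23% of the pair's TPM at E14.5 and 87.3 ± 0.918% at P60. Psap, which encodes prosaposin, rose in the second step from 561.9 to 2081 CPM (1.89 ± 0.16, adjusted p = 1.5e-06). Sparc, the relative of Sparcl1, rose from 186.2 to 266.2 and 1077 CPM, and the Sparcl1 share of the pair went from 17.2 ± 2.16% to 43.4 ± 5.4% and 69.4 ± 6.68%. S100a1, a relative of S100b, also rose in the second step, from 1.87 to 220.4 CPM (6.88 ± 0.35, adjusted p = 3.9e-08). Aqp1, a water channel of choroid plexus, rose from 1.09 to 11.8 CPM in the first step and was at 10.5 CPM at P60. Aqp4 was 32.9 ± 5.08% of the summed TPM of 5 aquaporin genes (Aqp1, Aqp4, Aqp5, Aqp9 and Aqp11) at E9.5, 4.26 ± 1.64% at E14.5 and 77.2 ± 3.53% at P60.

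**Figure D4:**
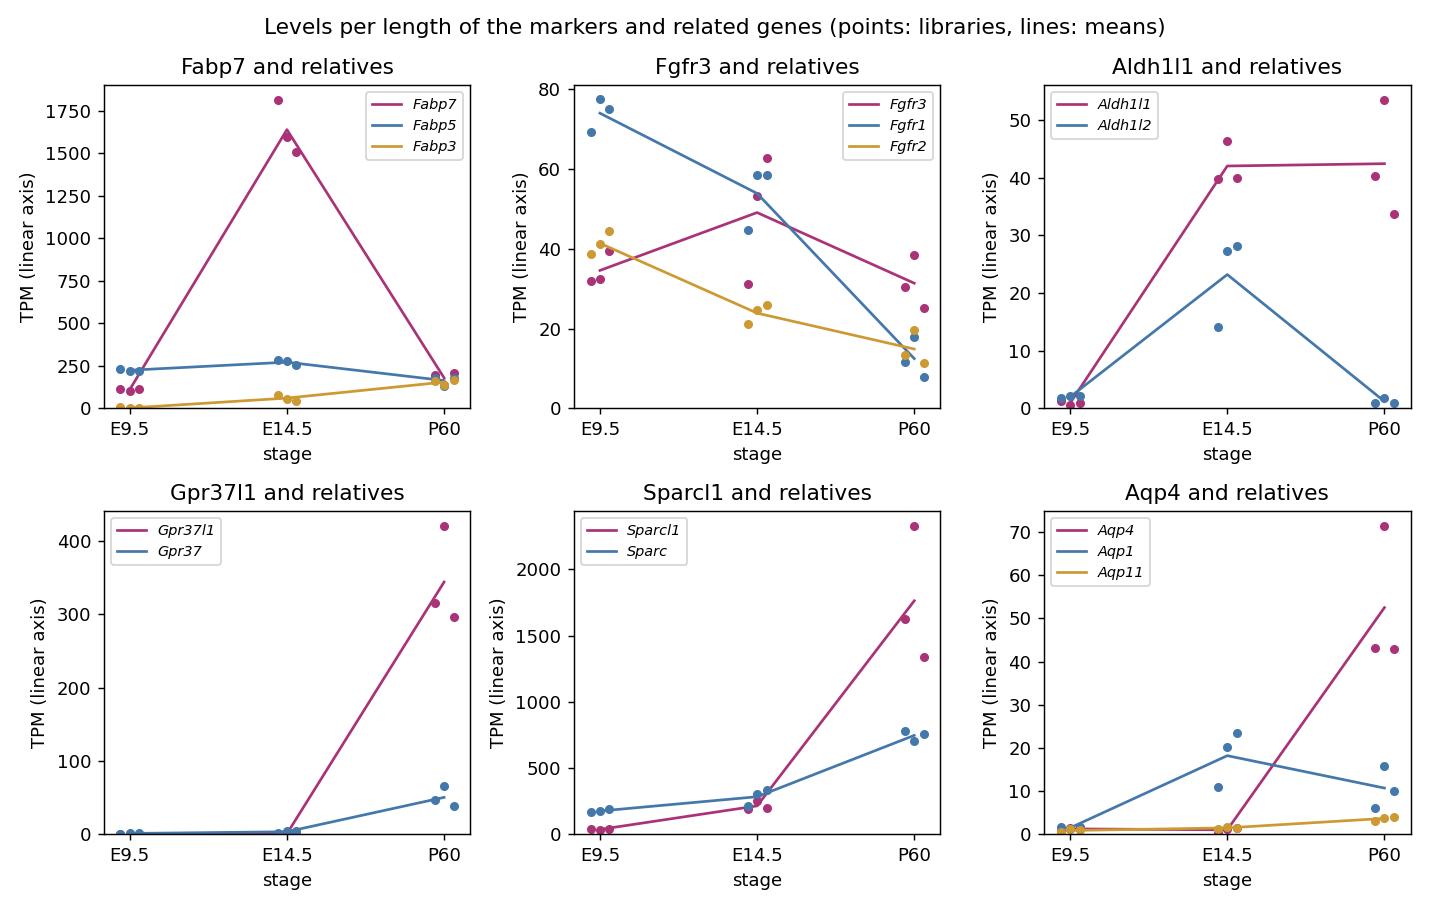
Level per exon length (TPM, linear axis starting at 0) of 6 of the genes and their relatives at each stage, with a point per library and lines through the stage means. TPM serves to compare genes within a stage. Fgfr3 lies below Fgfr1 at E9.5 and above it at P60, and Aldh1l1 lies above Aldh1l2 at E14.5 and P60. Fabp7 lies above Fabp5 beyond overlap only at E14.5. At P60 their ranges overlap, with Fabp7 slightly above Fabp5 within each library.

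Other genes of the angiotensin pathway around Agt were called in both directions. Of 13 tested 4 rose and 4 fell in the first step, beside 34.0% higher and 30.7% lower over all genes. In the second step 5 rose and 2 fell, beside 36.7% and 39.4% (medians of the 13 genes -0.03 and 0.33). Ace, the converting enzyme, rose from 1.01 to 8.24 and then 24.7 CPM. Mas1, a receptor for angiotensin 1-7, rose in the second step from 0.106 to 18.9 CPM (7.42 ± 0.35, adjusted p = 2.6e-08). The angiotensin II receptor Agtr1a was at 1.38, 0.702 and 0.455 CPM and fell in the first step (-0.97 ± 0.28, adjusted p = 0.011).

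Partners of Aqp4 and Mlc1 at the endfoot and the cell junction were counted as a list of 18 genes, without a test of the set. In the first step 10 rose and 6 fell (median 0.72), beside 34.0% higher and 30.7% lower over all genes. In the second 10 rose and 3 fell (median 0.74), beside 36.7% and 39.4%. Hepacam, the adhesion protein that brings Mlc1 to the membrane, rose from 0.109 to 6.78 CPM (5.91 ± 0.28, adjusted p = 3.9e-08) and then to 94.4 CPM (3.80 ± 0.19, adjusted p = 3.3e-08). Kcnj10, the potassium channel Kir4.1, rose from 1.54 to 18.1 and 132.6 CPM. Both genes rose in the first step, where Aqp4 was not called. Agrn, agrin of the basal lamina, fell in the second step from 685.7 to 75.4 CPM, and so did Dag1, dystroglycan, from 137.7 to 52.9 CPM.

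Of 35 other astrocyte genes 24 rose and 5 fell in the first step (median 1.29), and 33 rose and 2 fell in the second (median 3.47). The shares over all genes were 34.0% higher and 30.7% lower in the first step, and 36.7% and 39.4% in the second. Gfap, the astrocyte intermediate filament, had 0.318 CPM at E9.5, 2.42 CPM at E14.5 and 455.1 CPM at P60, a second rise of 7.55 ± 0.49 (adjusted p = 2.2e-07). The glutamate transporter genes Slc1a3 (19.3, 133.7 and 805.4 CPM) and Slc1a2 (11.9, 133.0 and 706.9 CPM) rose in both steps. Gja1, connexin 43, fell from 320.7 to 90.5 CPM and then rose to 198.2 CPM. Radial glia and progenitor genes went the other way in the second step: of 20, 3 rose and 17 fell (median -2.57), with Nes from 506.9 to 7.06 CPM, while 8 rose and 3 fell in the first step. Fabp7 changed by -2.59 on the log2 scale in that step, close to the median of these 20 genes (-2.57). Nes had the largest fall among them (-6.16), and the differences from Fabp7 were not tested.

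Nuclear factor I genes, which switch radial glia toward making astrocytes, were highest at E14.5 like Fabp7. They belong to a list of gliogenic transcription factors and signals, with 35 genes tested. In the first step 16 rose and 7 fell (median 0.39), beside 34.0% higher and 30.7% lower over all genes. In the second 10 rose and 20 fell (median -0.68), beside 36.7% and 39.4%. Nfia had 2.25, 130.6 and 12.3 CPM at the 3 stages, Nfib 4.85, 507.3 and 53.7 CPM, and Nfix 0.618, 401.4 and 50.4 CPM. Their first rises were 5.85 ± 0.31 (adjusted p = 6.8e-08), 6.71 ± 0.20 (7.9e-09) and 9.34 ± 0.70 (7.7e-07), and all 3 fell in the second step. Sox9, a glial fate factor, rose from 48.2 to 63.4 CPM (adjusted p = 0.045) and fell to 17.1 CPM.

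**Figure D5:**
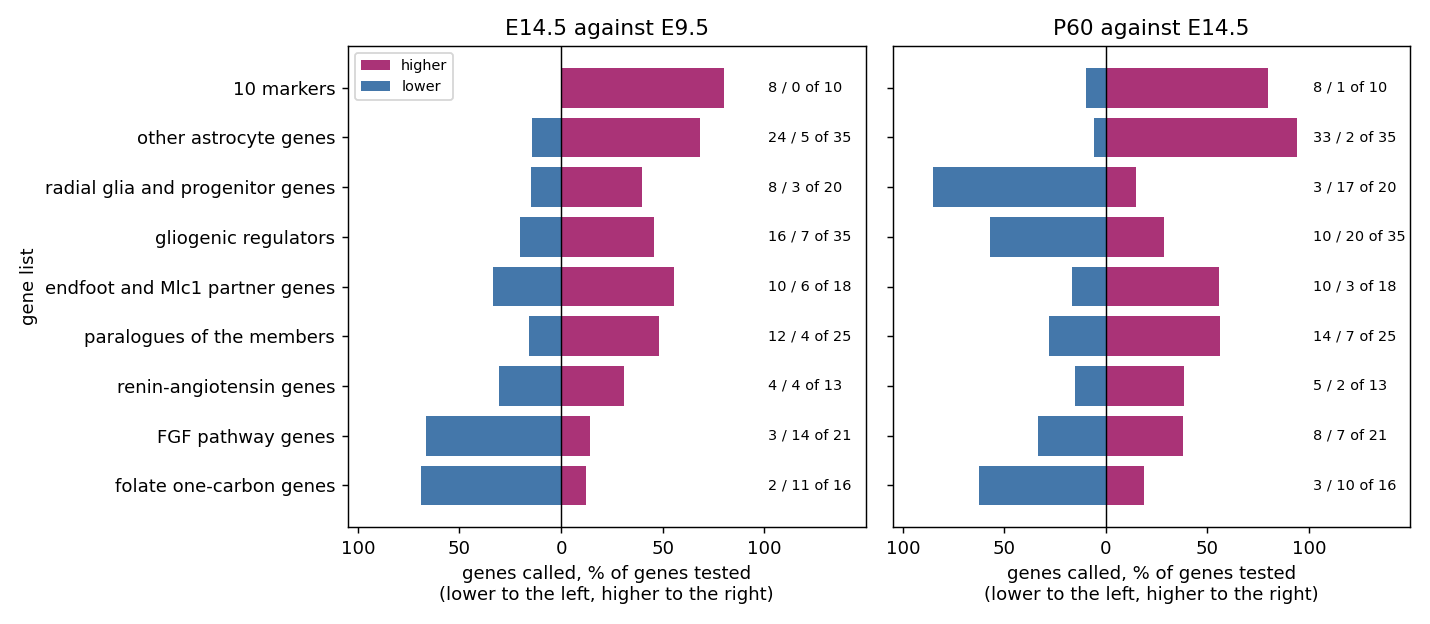
Share of the tested genes of each list called higher (right, magenta) or lower (left, blue), in percent, from E9.5 to E14.5 and from E14.5 to P60, with the counts higher / lower of tested printed beside the bars. In the second step 8 of the 10 genes and 33 of 35 other astrocyte genes rose, while 17 of 20 radial glia genes fell. Over all genes 34.0% were called higher and 30.7% lower in the first step, and 36.7% and 39.4% in the second.

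Markers of other cells moved in the same steps, and their part in the results was not tested. In the second step 12 of 12 oligodendrocyte and myelin markers rose (median 6.95), and 8 of 8 microglia markers rose. Their summed level in the E14.5 libraries was 89.2 to 127.3 CPM for oligodendrocyte markers and 63.7 to 70.6 CPM for microglia markers. Gpr37l1 and S100b are also detected in oligodendrocyte lineage cells. The P60 library with the lowest myelin sum, replicate 2 (14297 CPM), was the lowest of its stage for S100b (314.7 CPM) and the highest for Gpr37l1 (327.0 CPM). Choroid plexus and ependymal markers (12 genes) summed to 2088, 3861 and 4764 CPM in P60 replicates 1, 2 and 3, mostly from Ttr, the transthyretin of choroid plexus (1942, 3634 and 4555 CPM). Clu, which choroid plexus and ependyma also express, had 1041, 1208 and 1107 CPM in the same libraries. Vessel and meninges markers numbered 4 higher and 0 lower of 10 in the first step and 2 higher and 6 lower in the second. For comparison, 34.0% of all genes were higher and 30.7% lower in the first step, and 36.7% and 39.4% in the second.

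Finally, the genes with the most similar profiles were listed, as the 3 nearest to each member by Euclidean distance between centred log2 (CPM + 1) profiles over the 9 libraries. The candidates were the genes with at least 20 CPM in their highest stage. Nearest to S100b were Gfap, Gpr37l1 and Mbp, the myelin basic protein gene. Gpr37l1 was nearest to Mal, Mbp and Mag, all of them myelin genes, and Agt to Ntsr2, an astrocyte receptor gene, then Opalin and Pllp, which are myelin genes. Aqp4 had Zfp365, Pex5l and Gjc3 beside it. Aldh1l1 was nearest to Gng4 (0.362), Ntm and Ube2ql1, genes at 28.4, 118.6 and 134.0 CPM at E14.5. Fabp7 was nearest to Dlx1, a homeobox gene of interneuron progenitors (12.1, 229.8 and 29.0 CPM at the 3 stages), Nnat and Crmp1. Fgfr3 was nearest to Lrrn1 (67.0, 89.9 and 86.6 CPM). Sparcl1 had Kcnip2, Kcnab2 and Acsbg1, Clu had Ak5, Il34 and Trnp1, and Mlc1 had Hrasls, Ncald and Nrsn1. With only 3 stages, many unrelated genes share such a profile, and only 2 of the 30 names were also found by 1 minus Pearson correlation.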

How the data were processed

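Whole-tissue RNA was sequenced after poly(A)-primed full-length cDNA amplification, per the labels' protocols, in 9 libraries (3 per stage). The deposited table holds unnormalised counts for each gene. Trimming with Trimmomatic 0.36 and alignment to mm10 with STAR 2.5.2b are recorded per the submitters' processing notes. Which program counted the reads, on which annotation and with which strand setting, is not given in the sources used here. Overlapping antisense genes may therefore share reads. PCR copies carried no molecular identifiers, and count intervals cover counting error only.

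Symbols, coordinates and exon lengths came from GENCODE M21 (GRCm38), matched by 45143 of 45706 identifiers. The 9 libraries, each of 30481975 to 35619093 counts, were fitted together with edgeR 4.0.16 in R 4.3.3 (TMM scaling, filterByExpr, robust quasi-likelihood fit, stage as the only factor, two-sided, Benjamini-Hochberg adjustment over 17971 genes, threshold 0.05). Fold changes are log2 ± SE, where the SE is the size of the log2 change divided by the root of its F statistic. The dispersion common to all genes was 0.0394 (coefficient of variation 19.9%). The 4 contrasts share libraries, so calls in consecutive steps are not independent. Where a stage had 1 to 3 reads, the ratio of summed counts is given with an exact 95% interval. TPM used all exon bases of a gene. The script was tested on simulated data. The consecutive steps were also compared by the difference of their log2 changes.

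The 10 genes and all lists were chosen with earlier results of these data known. Named genes were the members, their 3 nearest genes, fixed partner genes, and up to 2 called rises and 2 called falls per list and step with at least 5 CPM in the higher stage. Fgfr4, the overlapping genes Gm15756 and G630022F23Rik, and the P60 myelin and choroid sums by library, were named after their values were seen. Alternatives were other scalings (RLE, upper quartile, library totals), DESeq2 1.42.0, other count filters, fits of only the stages compared, a replicate block, and leaving out each library. Some genes that the rule named are not reported here.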

Additional observations from a re-analysis of the deposited data

How the results depend on the processing

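Over the 40 member contrasts and all alternatives, 649 of 668 values kept their direction and their side of the threshold, 6 lost a call, 6 gained one and 7 turned sign. All 7 were the change of Fgfr3 from E14.5 to P60 (-0.04), which was 0.06 with RLE scaling, 0.12 with upper quartile scaling, 0.04 with DESeq2, 0.0 without a filter on low counts, 0.01 when only those stages were fitted, 0.12 without E14.5 replicate 3 and 0.03 without P60 replicate 3, and was called in none of these. Leaving out single libraries gave -0.23 to 0.12. The lost and gained calls stand beside Aldh1l1, Fgfr3, S100b, Agt and Gpr37l1 above. The calls of Agt and Gpr37l1 were lost on leaving out the E9.5 library that held all of the gene's reads at that stage. For the others the cause was not tested. Relative to TMM, upper quartile scaling moved the median change of all genes by 0.16 from E14.5 to P60 and by 0.15 from E9.5 to P60, and library totals moved it by -0.14 from E14.5 to P60. Vessel and meninges markers called from E9.5 to E14.5 numbered 3 to 7 when single libraries were left out (4 with all), with 7 without P60 replicate 2. Of the 30 nearest genes, 2 were also found by 1 minus Pearson correlation, which ignores the size of a change. Same-numbered libraries of different stages deviated with correlations from -0.224 to 0.37, 6 of 9 of them over 0.1. The numbers were not taken to pair libraries across the 3 stages, because the labels do not say that they link them. Between E9.5 and E14.5 all 3 same-numbered pairs were over 0.1 (0.141 to 0.37), but E9.5 replicate 2 correlated more with E14.5 replicate 3 (0.185) than with replicate 2, and the labels name no shared litter or batch. With the replicate number as a block, 12121, 14015 and 15081 genes were called in the 3 stage contrasts against 11613, 13681 and 14844 without it, and 0 member calls changed. Depth limits S100b, Agt and Gpr37l1 in the embryo (0 to 55 reads per library) most, and to a lesser degree Aldh1l1 at E9.5 (23 to 51 reads) and Aqp4 at both embryonic stages (19 to 75 reads).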
